A study of Mus musculus with 6 samples.

Results

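The 44 genes described here encode proteins of the skeletal muscle sarcomere, of calcium release and of muscle energy metabolism, and were chosen by name. The platform annotation gave a probe for 40 of them, 84 probes in all, out of 19057 genes with a probe. Myh2, Myh3, Smpx and Cacna1s matched no probe and have no expression value here, though their promoter windows are counted below. The RNA came from wounds cut through the whole thickness of mouse back skin and collected on day 8, and each of 6 wound samples was read on its own Illumina bead array. All mice were of a C57/BL6 background. The stabilised array came from a mouse homozygous for a floxed exon 3 of the beta-catenin gene that received an adenovirus with Cre, and its control from a mouse of that genotype that received an adenovirus with GFP, both aged 2 months. The knockdown arrays came from mice with floxed exons 2 to 6 and a Cre-Esr1 gene, and the tamoxifen control arrays from mice with the same floxed exons and no Cre-Esr1 gene. Tamoxifen was given to all 4 of these mice. Replicate 1 of each tamoxifen group was aged 5 months and replicate 2 was aged 2 months. The sources used here name neither the promoter that drives Cre-Esr1 nor the cells the adenovirus reached.

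Striated muscle contracts through sarcomeres, in which myosin thick filaments pull on actin thin filaments when calcium binds troponin. Fast and slow fibres build this machine from different isoforms of myosin, troponin and the calcium pump, and embryonic and neonatal myosin heavy chains are used in development and again, for a time, in regenerating fibres. The back skin of the mouse lies on a thin sheet of striated muscle, the panniculus carnosus, so a full-thickness wound and its edge can hold fibres of it. In whole wounds, fewer muscle cells and less of these RNAs per muscle cell cannot be told apart.

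Many of these genes are known to be switched on in muscle by MyoD family factors, which bind E boxes, and by MEF2 factors. The RefSeq table (GRCm38.p6) held a promoter window for 32 of the 44 genes, 38 windows in all. Of these, 4 are shown because they belong to genes on which the results below turn: the thin filament actin gene Acta1, the neonatal myosin gene Myh8, the creatine kinase gene Ckm and the titin gene Ttn. Each is the 250 bases before the gene's start, with E boxes (CANNTG) and MEF2 motifs (CTA and, after any 4 bases, TAG) in capitals. Both motifs read the same on the 2 strands, and they did not overlap each other in these windows.
Acta1 (chr8:123894776-123895025, minus strand): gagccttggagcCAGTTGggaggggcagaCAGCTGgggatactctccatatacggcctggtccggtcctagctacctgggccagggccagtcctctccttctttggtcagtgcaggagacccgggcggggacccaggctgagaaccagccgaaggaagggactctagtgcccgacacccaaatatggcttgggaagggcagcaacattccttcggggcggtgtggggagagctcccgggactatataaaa
Myh8 (chr11:67276874-67277123, plus strand): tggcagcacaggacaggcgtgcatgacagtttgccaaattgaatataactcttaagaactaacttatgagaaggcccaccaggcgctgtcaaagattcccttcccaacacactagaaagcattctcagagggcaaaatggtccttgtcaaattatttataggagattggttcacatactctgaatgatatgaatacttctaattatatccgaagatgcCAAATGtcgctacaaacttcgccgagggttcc
Ckm (chr7:19410844-19411093, plus strand): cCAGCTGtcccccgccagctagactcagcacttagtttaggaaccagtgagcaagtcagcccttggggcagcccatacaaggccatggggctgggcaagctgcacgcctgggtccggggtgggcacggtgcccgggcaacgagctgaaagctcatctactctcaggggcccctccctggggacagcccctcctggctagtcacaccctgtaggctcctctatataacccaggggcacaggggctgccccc
Ttn (chr2:76982548-76982797, minus strand): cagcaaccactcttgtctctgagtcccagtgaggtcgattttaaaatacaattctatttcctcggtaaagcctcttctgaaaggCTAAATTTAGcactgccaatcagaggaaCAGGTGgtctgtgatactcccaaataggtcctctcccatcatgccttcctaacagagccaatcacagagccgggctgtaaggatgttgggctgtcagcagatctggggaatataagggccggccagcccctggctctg
The Acta1 window held 2 E boxes, and the Myh8, Ckm and Ttn windows held 1 each. Ttn was the only one of these 4 with a MEF2 motif, from -166 to -157 relative to its start. Over all windows of the muscle genes, 31 of 38 (81.6%) held at least 1 E box, against 66.2% of 32851 promoter windows of the same length. The MEF2 motif stood in 3 of 38 (7.89%), in Ttn, Ldb3 and Smpx, against 3.20% of all windows. A match of letters does not show that a factor binds there.

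Values below are the deposited log2 values of the brightest probe of each gene, and a pair of values for a tamoxifen group gives replicate 1 (5 months) and then replicate 2 (2 months). A gene is called below detection on an array when none of its probes had a detection p under 0.01 there. The 40 genes were spread very unevenly over the 6 arrays. Of them, 11 were detected on the stabilised array, 26 on the GFP control array, 27 on knockdown replicate 1, 36 on knockdown replicate 2, and 38 on each tamoxifen control array. The highest value was on tamoxifen control replicate 1 for 39 of the 40 genes, where 11.8% of all tested genes had theirs. The lowest was on the stabilised array for 36 of 40, against 20.6% of all tested genes. The 40 include 2 genes detected on no array, which were not tested. For the 14 genes below detection on both adenovirus arrays, which array is lowest rests on background. Skin genes were present throughout: the keratin gene Krt14 read 15.85 to 16.02 and the collagen gene Col1a1 15.01 to 15.60 over the 6 arrays. Krt14 lay near the highest value of any array, 16.04, and other keratin genes were less even. Krt5 read 12.30 to 14.11 over the 6 arrays, and Krt15 read 8.61 on the stabilised and 12.54 on the GFP control array. Skin content was thus not shown to be equal between the arrays. Between 15217 and 16656 of 45281 probes were detected per array, the stabilised array having the fewest, and 6 arrays limit the precision of every value. Ctnnb1, the gene that was floxed, read 11.93 and 11.86 in knockdown and 12.04 and 11.48 in tamoxifen control wounds (adjusted p = 0.983 in limma), and 11.40 on the stabilised against 11.49 on the GFP control array. The position of its probes within the gene is unknown here, and the labels cannot be checked by these levels.

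**Figure D1:**
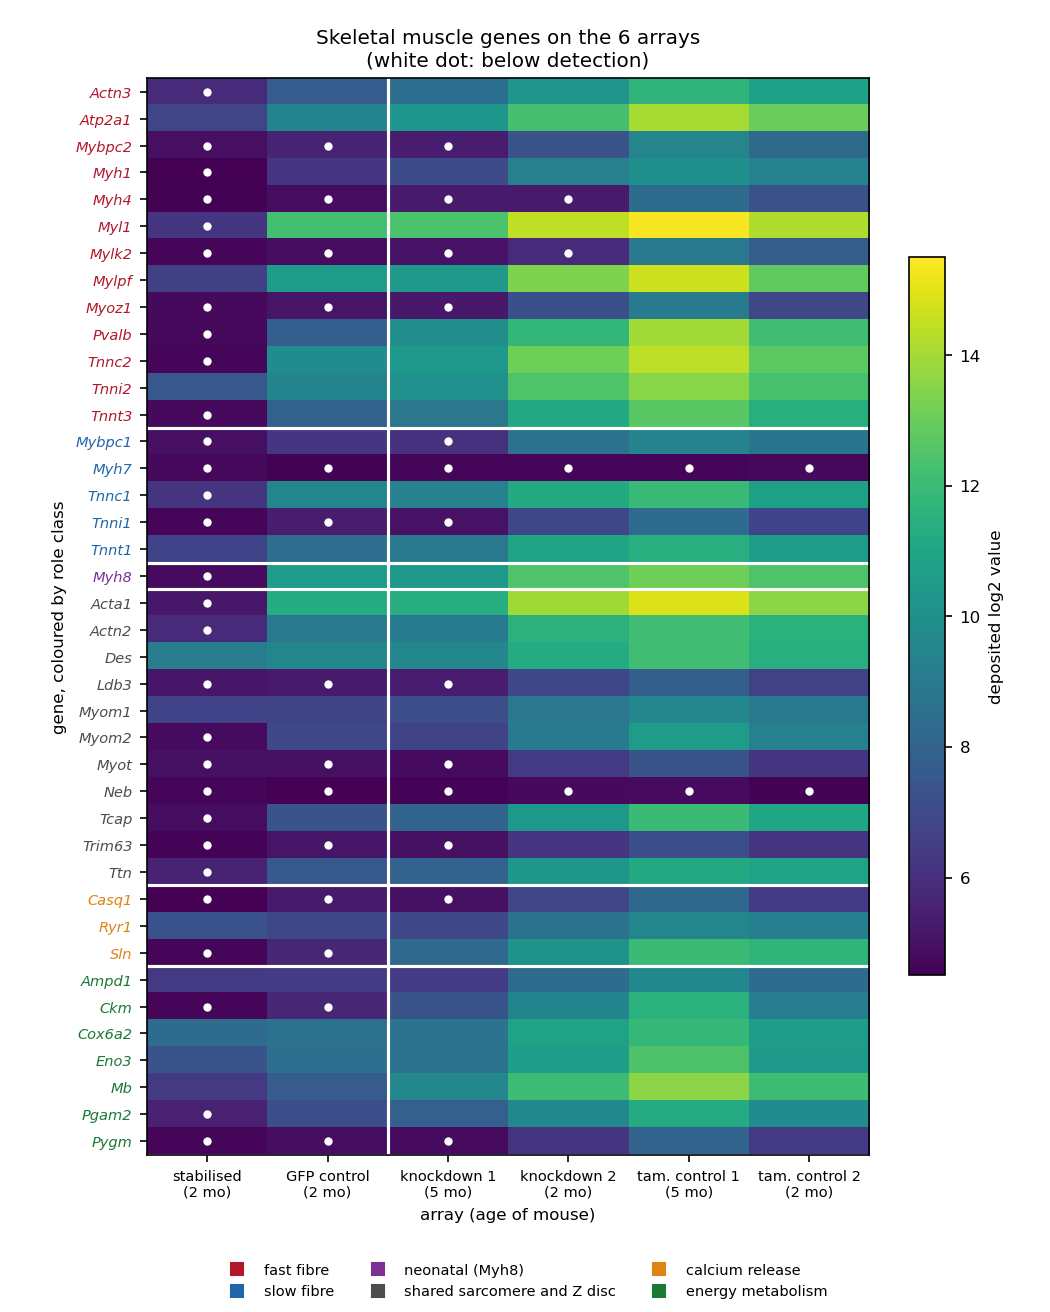
Deposited log2 values (colour) of the brightest probe of each of the 40 muscle genes (rows, grouped by role) on the 6 arrays (columns), with a white dot where no probe of the gene was detected. Rows are different probes, so levels compare along a row only. Tamoxifen control replicate 1 holds the highest value in 39 rows and the stabilised array the lowest in 36, counting values below detection as measured.

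Genes of fast fibres made up the largest group, 13 of 14 with a probe. Myl1, an essential light chain of fast myosin, read 6.18 (below detection) on the stabilised and 12.16 on the GFP control array, 12.39 and 14.46 on the knockdown arrays, and 15.38 and 14.21 on the tamoxifen control arrays. Mylpf, the regulatory light chain of fast fibres, read 6.58 on the stabilised and 10.53 on the GFP control array, 10.43 and 13.39 on the knockdown arrays, and 14.67 and 12.83 on the tamoxifen control arrays. For both, knockdown replicate 2 lay above tamoxifen control replicate 2 while knockdown replicate 1 was the lowest of the 4 tamoxifen arrays, so the groups overlapped. Fast troponin has 3 subunits, and all were measured. Tnnc2, the calcium-binding subunit, read 4.64 (below detection) on the stabilised and 9.82 on the GFP control array, 10.39 and 13.06 on the knockdown arrays, and 14.39 and 12.74 on the tamoxifen control arrays. Tnni2, the inhibitory subunit, read 7.50 on the stabilised and 9.45 on the GFP control array, 10.07 and 12.47 on the knockdown arrays, and 13.57 and 12.30 on the tamoxifen control arrays. Tnnt3, which anchors the complex to tropomyosin, read 4.77 (below detection) on the stabilised and 7.89 on the GFP control array, 8.85 and 11.24 on the knockdown arrays, and 12.70 and 11.43 on the tamoxifen control arrays. Tnnt3 did not overlap between the tamoxifen groups, by the narrow gap between 11.24 and 11.43, and Tnnc2 and Tnni2 did.

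Atp2a1, the calcium pump of fast fibres, read 6.81 on the stabilised and 9.47 on the GFP control array, 10.28 and 12.25 on the knockdown arrays, and 14.06 and 12.97 on the tamoxifen control arrays. Pvalb, the calcium buffer parvalbumin, read 4.73 (below detection) on the stabilised and 7.77 on the GFP control array, 9.95 and 11.76 on the knockdown arrays, and 13.98 and 12.11 on the tamoxifen control arrays. Actn3, the fast-fibre alpha-actinin of the Z disc, read 5.79 (below detection) on the stabilised and 7.71 on the GFP control array, 8.50 and 10.23 on the knockdown arrays, and 11.67 and 10.79 on the tamoxifen control arrays. In these 3 genes both knockdown arrays lay below both tamoxifen controls, and the 5-month arrays lay farther apart than the 2-month arrays. Mybpc2, the fast form of myosin-binding protein C, read 4.94 (below detection) on the stabilised and 5.55 (below detection) on the GFP control array, 5.39 (below detection) and 7.31 on the knockdown arrays, and 9.49 and 8.30 on the tamoxifen control arrays. Myh1, a fast myosin heavy chain, read 4.49 (below detection) on the stabilised and 6.19 on the GFP control array, 7.05 and 9.29 on the knockdown arrays, and 10.04 and 9.40 on the tamoxifen control arrays. Myoz1, a Z-disc protein that binds calcineurin, read 4.79 (below detection) on the stabilised and 5.14 (below detection) on the GFP control array, 5.27 (below detection) and 7.19 on the knockdown arrays, and 8.98 and 6.84 on the tamoxifen control arrays. Mybpc2 and Myoz1 were thus below detection on both adenovirus arrays and on knockdown replicate 1. Myh4, the heavy chain of the fastest fibres, and Mylk2, the kinase of the skeletal myosin light chain, were detected on the tamoxifen control arrays alone. Myh4 read 8.38 and 7.23 there against 5.31 and 5.30 in knockdown wounds, at least 3.28-fold lower in knockdown. Mylk2 read 8.92 and 7.72 there against 5.04 and 5.84 in knockdown wounds, at least 4.69-fold lower in knockdown. These bounds set each knockdown array at the higher of its lowest detected signal and the probe's own value.

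Of the 5 slow-fibre genes, all with a probe, 4 were detected. Tnnc1, the troponin C of slow and heart muscle, read 6.14 (below detection) on the stabilised and 9.55 on the GFP control array, 9.36 and 11.21 on the knockdown arrays, and 11.97 and 10.76 on the tamoxifen control arrays. Tnnt1, slow troponin T, read 6.73 on the stabilised and 8.42 on the GFP control array, 8.90 and 10.93 on the knockdown arrays, and 11.42 and 10.64 on the tamoxifen control arrays. Both lay slightly higher in knockdown than in control wounds at 2 months and far lower at 5 months. Tnni1, slow troponin I, read 4.70 (below detection) on the stabilised and 5.39 (below detection) on the GFP control array, 5.06 (below detection) and 6.82 on the knockdown arrays, and 8.34 and 6.71 on the tamoxifen control arrays. Mybpc1, the slow form of myosin-binding protein C, read 4.94 (below detection) on the stabilised and 6.23 on the GFP control array, 6.05 (below detection) and 8.64 on the knockdown arrays, and 9.41 and 8.76 on the tamoxifen control arrays. The slow myosin heavy chain gene Myh7 was below detection on all 6 arrays in each of its 3 probes, with 4.48 to 4.81 over those probes and arrays.

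Of the developmental myosins, Myh8 alone was measured. This neonatal heavy chain read 4.80 (below detection) on the stabilised and 10.57 on the GFP control array, 10.37 and 12.45 on the knockdown arrays, and 13.09 and 12.48 on the tamoxifen control arrays. It was detected on every array but the stabilised one, and its 3 probes gave knockdown minus control differences from -1.37 to -1.34. On the stabilised array it was at least 19.4-fold lower than on the GFP control array.

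The sarcomere and Z-disc proteins that fast and slow fibres share had 11 of 12 genes with a probe. Acta1, the actin of skeletal thin filaments, read 5.20 (below detection) on the stabilised and 11.30 on the GFP control array, 11.34 and 13.94 on the knockdown arrays, and 14.92 and 13.59 on the tamoxifen control arrays. Actn2, the alpha-actinin of all fibres, read 5.80 (below detection) on the stabilised and 8.90 on the GFP control array, 9.03 and 11.55 on the knockdown arrays, and 12.13 and 11.54 on the tamoxifen control arrays. Ttn, the elastic protein that spans from Z disc to M band, read 5.57 (below detection) on the stabilised and 7.54 on the GFP control array, 7.96 and 10.31 on the knockdown arrays, and 11.19 and 10.85 on the tamoxifen control arrays. Acta1 and Actn2 overlapped between the tamoxifen groups, with knockdown replicate 2 at or above tamoxifen control replicate 2, and Ttn did not overlap. Of 12 Ttn probes, 2 were detected on any array, and these gave knockdown minus control differences of -1.88 and -1.87. Tcap, the titin cap at the Z disc, read 4.88 (below detection) on the stabilised and 7.38 on the GFP control array, 8.03 and 10.37 on the knockdown arrays, and 12.01 and 10.98 on the tamoxifen control arrays. The M-band gene Myom2 read 4.83 (below detection) on the stabilised and 6.88 on the GFP control array, 6.75 and 9.004 on the knockdown arrays, and 10.56 and 9.32 on the tamoxifen control arrays. Its relative Myom1 read 6.70 on the stabilised and 6.74 on the GFP control array, 7.15 and 8.87 on the knockdown arrays, and 9.61 and 8.96 on the tamoxifen control arrays. Des, the intermediate filament of muscle cells, read 9.11 on the stabilised and 9.56 on the GFP control array, 9.57 and 11.27 on the knockdown arrays, and 12.11 and 11.41 on the tamoxifen control arrays. Myom1 and Des kept a level on the stabilised array within 0.45 log2 of the GFP control array, whereas Tcap and Myom2 were below detection there. Desmin is also made by smooth muscle.

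Ldb3, a PDZ and LIM protein of the Z disc, read 5.16 (below detection) on the stabilised and 5.31 (below detection) on the GFP control array, 5.34 (below detection) and 6.83 on the knockdown arrays, and 7.84 and 6.61 on the tamoxifen control arrays. Myot, a Z-disc crosslinker, read 4.97 (below detection) on the stabilised and 5.01 (below detection) on the GFP control array, 4.84 (below detection) and 6.39 on the knockdown arrays, and 7.37 and 6.21 on the tamoxifen control arrays. Trim63, a ubiquitin ligase induced in wasting muscle, read 4.62 (below detection) on the stabilised and 5.12 (below detection) on the GFP control array, 4.99 (below detection) and 6.18 on the knockdown arrays, and 7.15 and 6.14 on the tamoxifen control arrays. All 3 were detected on the same 3 arrays, knockdown replicate 2 and both tamoxifen controls. Ldb3 has 6 probes, 3 of which were detected on some array, with knockdown minus control differences from -1.50 to -0.59. Neb, the thin filament ruler nebulin, was below detection on every array on its 1 probe.

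Calcium release genes had 3 of 4 members with a probe. Sln, sarcolipin, an inhibitor of the calcium pump, read 4.63 (below detection) on the stabilised and 5.66 (below detection) on the GFP control array, 8.25 and 10.11 on the knockdown arrays, and 11.98 and 11.72 on the tamoxifen control arrays. Casq1, the calcium store protein of the sarcoplasmic reticulum, read 4.54 (below detection) on the stabilised and 5.27 (below detection) on the GFP control array, 5.00 (below detection) and 6.78 on the knockdown arrays, and 8.16 and 6.38 on the tamoxifen control arrays. Ryr1, the calcium release channel, read 7.27 on the stabilised and 6.88 on the GFP control array, 6.91 and 8.65 on the knockdown arrays, and 9.53 and 9.23 on the tamoxifen control arrays. Sln and Ryr1 did not overlap between the tamoxifen groups and Casq1 did. Ryr1 was the only tested muscle gene that read higher on the stabilised than on the GFP control array, and its 3 detected probes gave 0.39 to 1.05 log2.

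All 7 energy metabolism genes had a probe. Ckm, the muscle creatine kinase, read 4.64 (below detection) on the stabilised and 5.66 (below detection) on the GFP control array, 7.30 and 9.47 on the knockdown arrays, and 11.52 and 9.12 on the tamoxifen control arrays. Mb, the oxygen store myoglobin, read 6.38 on the stabilised and 7.72 on the GFP control array, 9.59 and 12.05 on the knockdown arrays, and 13.59 and 12.09 on the tamoxifen control arrays. Eno3, the muscle enolase, read 7.32 on the stabilised and 8.53 on the GFP control array, 8.59 and 10.61 on the knockdown arrays, and 12.42 and 10.40 on the tamoxifen control arrays. Ckm and Eno3 had the widest gap between the tamoxifen control arrays of this class, over 2 log2. Pgam2, the muscle phosphoglycerate mutase, read 5.52 (below detection) on the stabilised and 7.15 on the GFP control array, 7.86 and 9.62 on the knockdown arrays, and 11.25 and 9.81 on the tamoxifen control arrays. Pygm, the muscle glycogen phosphorylase, read 4.69 (below detection) on the stabilised and 4.85 (below detection) on the GFP control array, 4.82 (below detection) and 6.18 on the knockdown arrays, and 7.98 and 6.38 on the tamoxifen control arrays. Cox6a2, the muscle form of a cytochrome oxidase subunit, read 8.36 on the stabilised and 8.62 on the GFP control array, 8.70 and 10.85 on the knockdown arrays, and 11.84 and 10.67 on the tamoxifen control arrays. Mb, Pgam2 and Pygm did not overlap between the tamoxifen groups, while Ckm, Eno3 and Cox6a2 did. Ampd1, the muscle AMP deaminase, read 6.35 on the stabilised and 6.39 on the GFP control array, 6.47 and 8.37 on the knockdown arrays, and 9.65 and 8.35 on the tamoxifen control arrays. Its 2-month arrays differed by 0.01 log2.

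**Figure D2:**
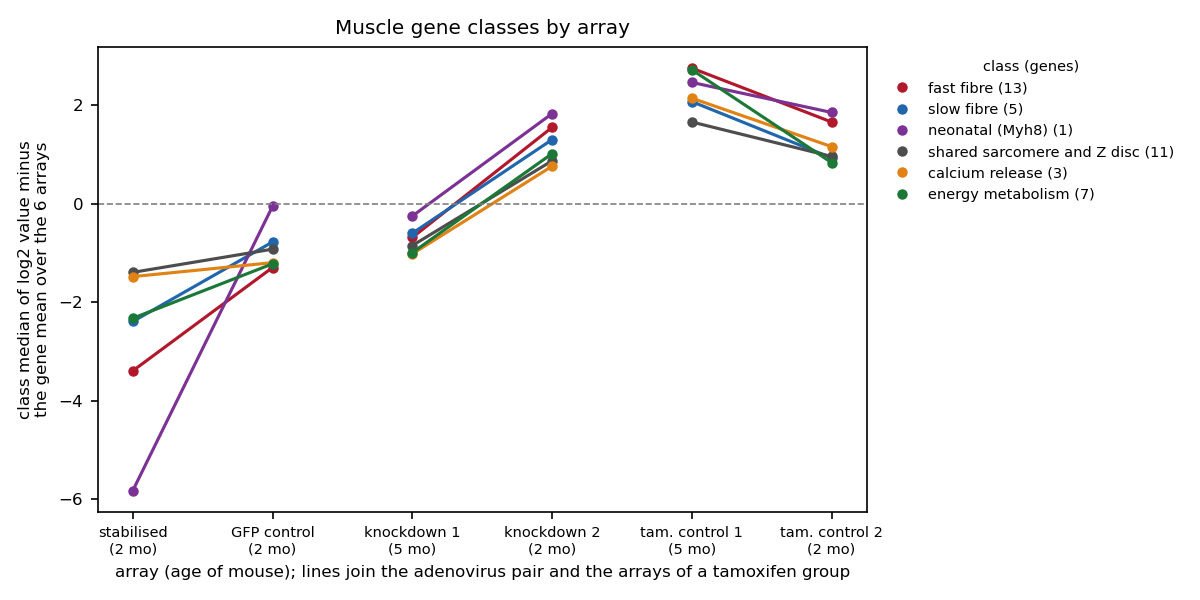
Median, over the genes of each class (number in brackets), of the log2 value minus the gene's own mean over the 6 arrays, for each array. In every class the stabilised array is lowest, knockdown replicate 1 lies below knockdown replicate 2, and tamoxifen control replicate 1 lies above replicate 2.

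Knockdown wounds read lower than tamoxifen control wounds in 39 of the 40 muscle genes (38 of the 38 tested, where 48.1% of all tested genes were lower), with a median log2 difference of -1.67 (range -2.88 to 0.01), against a median of 0.00 over all 19057 genes. The class medians were -1.87 for fast, -1.11 for slow, -1.37 for neonatal, -1.34 for shared sarcomere, -1.61 for calcium release and -1.79 for energy genes. The slow and shared medians include Myh7 and Neb, which were detected on no array. Over genes detected on at least 3 arrays the medians were -1.85 for fast, -1.35 for slow and -1.44 for shared sarcomere genes. No gene passed the test. Of the 38 muscle genes that entered limma, 0 had an adjusted p under 0.05, as did 0 of all 9851 genes tested (0%), and the muscle genes' adjusted p ran from 0.866 to 0.976. An unadjusted p under 0.05 was found for 8, all lower in knockdown, against 2.52% of all tested genes: Myh4, Mylk2, Sln, Mybpc2, Atp2a1, Actn3, Tcap and Ryr1. The groups did not overlap for 20 of the 38, all lower in knockdown, against 16% of all tested genes that were lower without overlap. Myh4 and Mylk2 entered only through their control values, so a lower knockdown mean was built into their entry. With 2 arrays in each group, 0.333 is the smallest two-sided p that exact permutation allows.

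The spread between replicates was wide beside these differences. The mean for Sln was 9.18 ± 1.31 in knockdown wounds, against 11.85 ± 0.19 in tamoxifen control wounds (SD, n = 2 each), with a log2 difference of -2.67 with a standard error of 0.63 (adjusted p = 0.976 in limma). For Acta1 it was 12.64 ± 1.84 in knockdown wounds, against 14.25 ± 0.94 in tamoxifen control wounds (SD, n = 2 each), with a log2 difference of -1.61 with a standard error of 0.97 (adjusted p = 0.976 in limma). For Ckm it was 8.38 ± 1.53 in knockdown wounds, against 10.32 ± 1.69 in tamoxifen control wounds (SD, n = 2 each), with a log2 difference of -1.94. Over the 38 tested muscle genes the median within-group SD was 1.37 log2 in knockdown and 0.85 in control wounds, against 0.16 and 0.14 over all tested genes. For 29 of the 38 the gap between the knockdown arrays exceeded the difference between the groups, as it did for 62.6% of all tested genes. Without knockdown replicate 1 the median difference of the 40 genes was -0.58, and without knockdown replicate 2 it was -2.67. It was -1.01 without tamoxifen control replicate 1 and -2.29 without tamoxifen control replicate 2.

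Taken by age, the arrays of the 2 groups lay far apart at 5 months and, for most genes, close together at 2 months. At 5 months, all 38 tested genes were at least 2-fold lower on the knockdown than on the control array, where 2.8% of all tested genes were, and the median over the 40 genes was -3.21 log2. Of the 38, 11 were below detection on the knockdown array at 5 months, and with these at their bounds all 38 were still at least 2-fold lower. At 2 months the median over the 40 genes was -0.03, with 18 of the 38 tested genes higher and 20 lower in knockdown, and 47.1% of all tested genes higher. At least 2-fold lower at 2 months were 3 genes, against 2.18% of all tested genes: Sln, with a difference of -1.61 log2, and Myh4 and Mylk2, which were below detection on the knockdown array and at least 2.26-fold and 3.19-fold lower. Myh4 and Mylk2 entered the test through their control values alone, so their part in the counts at 5 and at 2 months is no support for a difference. Of the 38, 0 were at least 2-fold higher, against 1.46%. The other 35 lay within 2-fold, as did 96.4% of all tested genes. Each age has 1 array per group, so neither difference has a replicate check, and the difference between the ages was not tested because no residual degree of freedom is left for it.

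The same values can be read as differences between replicates. Knockdown replicate 1 (5 months) read lower than knockdown replicate 2 (2 months) in 37 of the 38 tested genes, by at least 2-fold in 36, against 3.27% of all tested genes, with a median of -1.92 log2 over the 40 genes. Part of the 36 rests on background values, since 11 of the 38 were below detection on knockdown replicate 1. Its lowest detected signal was 6.14. Trim63, Pygm, Myot, Casq1, Tnni1 and Ldb3 were below detection there and read 6.18 to 6.83 on knockdown replicate 2. With knockdown replicate 1 at 6.14 these genes would lie within 2-fold. Tamoxifen control replicate 1 (5 months) read higher than replicate 2 (2 months) in all 38, by at least 2-fold in 27, against 1.49% of all tested genes, with a median of 1.18 over the 40 genes. The replicates of each group thus ran in opposite directions with age, and age and replicate number cannot be told apart. In the control group the gap was widest for Ckm (2.40), Myoz1 (2.13) and Eno3 (2.02). It was narrowest among the tested genes for Sln (0.27) and Ryr1 (0.30).

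**Figure D3:**
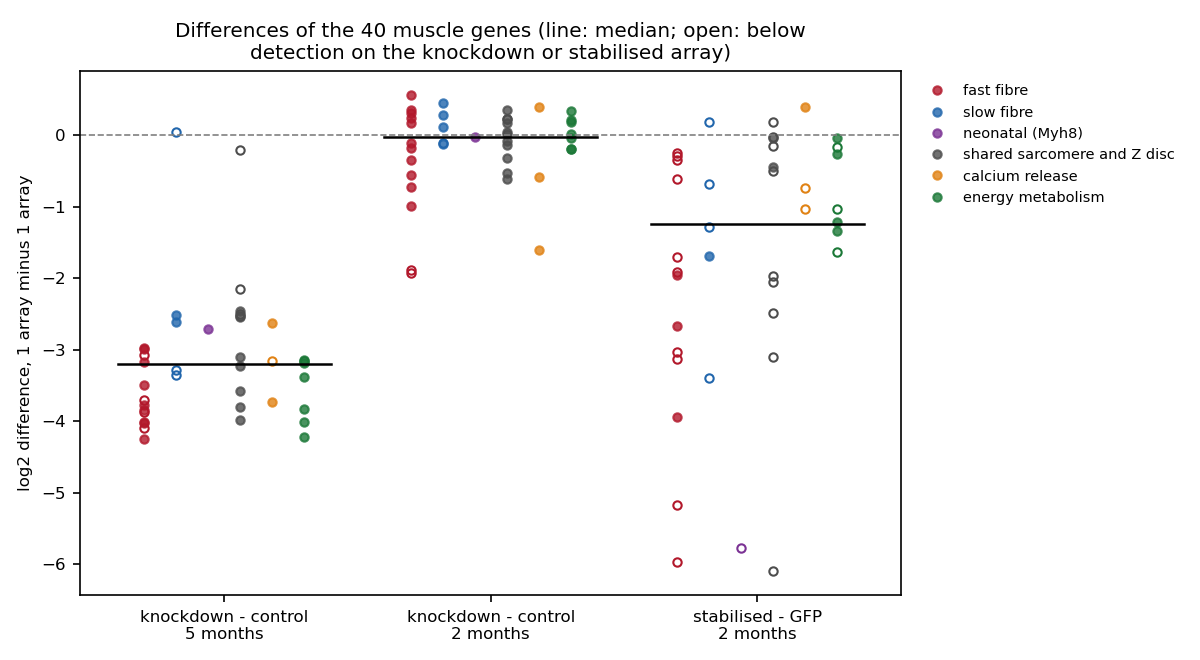
Log2 difference of each of the 40 muscle genes, 1 array minus 1 array, for knockdown minus tamoxifen control at 5 and at 2 months and for stabilised minus GFP control, coloured by class. Black lines are medians (-3.21, -0.03 and -1.25), and open points are genes below detection on the knockdown or stabilised array. Their differences are cut short by the floor or, where the gene was also below detection on the control array, show no direction.

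The stabilised wound read lower than the GFP control wound in 37 of the 40 genes, with a median log2 difference of -1.25, against 0.03 over all 19057 genes. This comparison has 1 array per group, so it has no replicate check and no test. Of the 26 genes detected on at least 1 of the 2 arrays, 21 were at least 2-fold lower on the stabilised array and 0 at least 2-fold higher, against 4.89% and 2.76% of the 9991 genes so detected. On the stabilised array 15 genes were below detection that were detected on the GFP control array. These 15 entered the count through the GFP control array alone, so a lower stabilised value was built into their entry. Of these, 13 have a bound from the lowest detected signal, and Myh1 and Mybpc1 lay too near it for a fold: Myl1 was at least 58.0-fold lower, Acta1 at least 32.0-fold, Myh8 at least 19.4-fold, Tnnc2 at least 11.5-fold, Tnnc1 at least 9.51-fold and Actn2 at least 6.07-fold. The median of the 26 was -1.96 at the measured values and -1.37 with those genes at their bounds, where 17 of the 26 were at least 2-fold lower. Over the 40 genes the median was -0.56 without background correction, -0.80 with the mean over a gene's probes and -0.82 with a larger offset. The other 14 genes were below detection on both arrays and show no direction.

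The 11 genes still detected on the stabilised array differed among themselves. Mylpf, Atp2a1, Tnni2 and Tnnt1 differed by -3.95, -2.67, -1.95 and -1.69 log2. Mb and Eno3 differed by -1.34 and -1.21. Des (-0.45), Cox6a2 (-0.26), Ampd1 (-0.05), Myom1 (-0.04) and Ryr1 (0.39) lay within 2-fold. Probes of 1 gene can differ in this comparison where the floor is near: the 3 Actn3 probes gave -1.91 to -0.20, and the 3 Myl1 probes -5.98 to -1.78.

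The GFP control wound was itself low in muscle RNA. It read lower than tamoxifen control replicate 2, from a mouse of the same age, in all 40 genes, with a median of -2.33 log2. At the measured values all 38 tested genes were at least 2-fold lower, against 2.91% of all tested genes. These 38 entered through tamoxifen arrays, and part of that count rests on background values. The lowest detected signal of the GFP control array was 6.02. Trim63, Myot, Casq1, Pygm, Ldb3, Tnni1 and Myoz1 were below detection there and read 6.14 to 6.84 on tamoxifen control replicate 2. With the GFP control array at 6.02 these genes would lie within 2-fold. The arrays differ in allele and agent as well, which cannot be told apart. Set against knockdown replicate 1, the other array with little muscle RNA, the GFP control array had a median difference of -0.11 over the 40 genes. Some of the 40 were below detection on both arrays. Over the 26 genes detected on at least 1 adenovirus array the median was -0.32, with 21 lower and 5 higher. Of the 38 tested genes, 4 were at least 2-fold lower, against 3.03% of all tested genes. These 4 were Sln (-2.59), Pvalb (-2.18), Mb (-1.87) and Ckm (-1.63). Sln and Ckm were below detection on the GFP control array, so their differences are cut short by the floor. Myh8 (0.20), Tnnc1 (0.19), Acta1 (-0.04) and Actn2 (-0.13) were nearly level on those 2 arrays. Other energy and fast-fibre genes were as level, among them Eno3 (-0.06), Cox6a2 (-0.09), Ampd1 (-0.08) and Mylpf (0.10), so the 4 lower genes do not mark off a class. All the genes named in this comparison were picked after their values were seen. The 2 wounds differ in age, allele and agent, and no test is possible between single arrays.

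**Figure D4:**
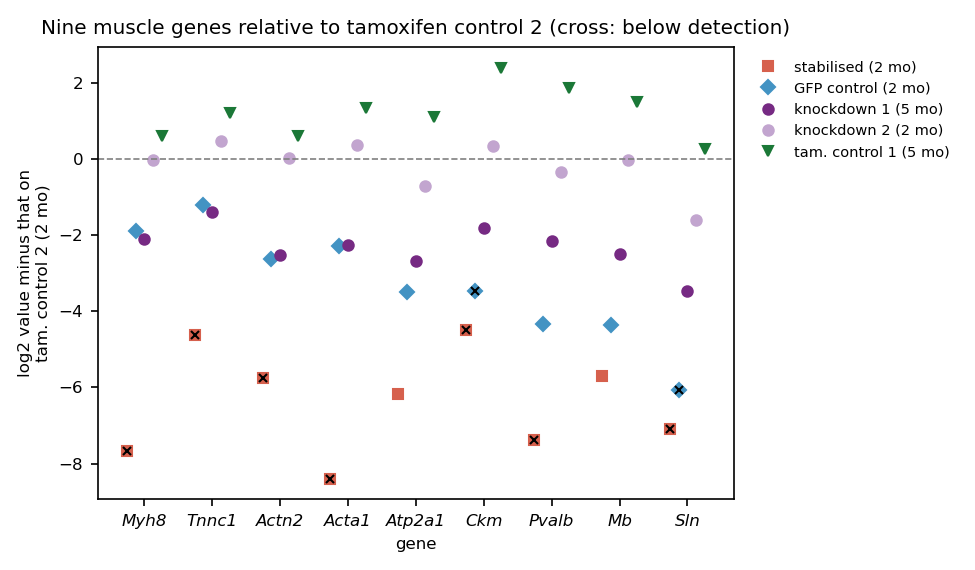
Log2 value on 5 arrays minus that on tamoxifen control replicate 2 (dashed line), for 9 muscle genes picked after their values were seen, with a cross where the gene was below detection. GFP control (diamonds) and knockdown replicate 1 (dark circles) lie within 0.20 log2 for Myh8, Tnnc1, Actn2 and Acta1 and farther apart for Ckm, Pvalb, Mb and Sln.

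Other striated muscle genes read lower in knockdown wounds at 5 months, and less uniformly so on the stabilised array. Of 66 such genes outside the list above, 61 had a probe and 40 were tested, of which 39 were lower in knockdown, against 48.1% of all tested genes, 1 was higher and 0 passed. Over the 61 their median difference was -2.10 log2 at 5 months and 0.13 at 2 months. Over the 26 detected on an adenovirus array the stabilised minus GFP control median was -0.38. Of these 26, 8 were at least 2-fold lower, against 4.89% of all genes so detected. For those that entered through the GFP control array alone, a lower stabilised value was built into their entry. Several that were detected on all 6 arrays read higher on the stabilised array, among them Flnc, the filamin of muscle, by 0.64 log2 and Fbxo32, a ubiquitin ligase of wasting muscle, by 0.54, both named after their values were seen. Of the 3 with the highest mean level, Fhl1, a LIM domain protein, had a knockdown minus control difference of -0.95, the phosphofructokinase gene Pfkm of -0.99, and the tropomyosin gene Tpm2, also made by smooth muscle, of 0.03. Of 15 myogenic factor and neuromuscular junction genes, 8 were tested and all 8 were lower in knockdown, with 0 past the threshold. Among them, Chrna1, a subunit of the muscle acetylcholine receptor, read 7.03 and 9.12 in knockdown and 9.68 and 9.05 in control wounds.

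Markers of other cells were measured beside these values. Of the heart muscle markers, 8 of 9 had a probe and 1 was tested, Myl4, the atrial and embryonic light chain, which read 10.86 and 12.60 in knockdown and 13.60 and 12.45 in control wounds. The heart factor gene Nkx2-5 was below detection on all 6 arrays on its brightest probe. Smooth muscle and myofibroblast markers, 7 of 9 detected per array, summed to 29465 on the stabilised and 29479 on the GFP control array, 30517 and 38549 on the knockdown arrays, and 28091 and 25722 on the tamoxifen control arrays, in linear units. Acta2, the actin of smooth muscle and myofibroblasts, was the brightest of these and made up most of each sum. It lay between 14.09 and 14.82 on all 6 arrays, a narrower range than that of skeletal actin. Over the 7 tested smooth muscle and myofibroblast markers the median knockdown minus control difference was 0.44, with 4 higher and 3 lower. Basal keratinocyte markers were lower in knockdown in all 9 tested, with medians of -1.09 log2 at 5 months and -1.11 at 2 months. Neutrophil markers, 5 of 8 tested, had medians over those 5 of 0.29 at 5 months and 1.67 at 2 months. Of the adipocyte markers, 3 of 9 were tested, and they did not move together. The knockdown minus control difference was 0.32 for Lpl, -0.23 for Adipoq and -2.23 for Car3. Car3, an enzyme that slow muscle also makes, read 7.60 and 10.59 in knockdown and 11.61 and 11.05 in control wounds. Median knockdown minus control differences were 0.07 for fibroblast, 0.09 for endothelial, 0.11 for macrophage markers, all of whose measured genes were tested, and -0.25 for the 3 tested Schwann cell markers. The part of these cells in the muscle values was not tested.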

How the data were processed

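Per the labels, biotin-labelled RNA of 6 wounds was read on Illumina bead arrays. Per the file headers, the deposited non-normalized table pairs each probe's signal intensity with its detection p-value, and 2 stray lines were dropped. The log2 values used here are a separate deposited table, and their sorted values differ by at most 0.0412 between the 6 arrays. R 2.14 is named in the submitters' processing notes, and the normalization step is unknown here. The values differ by at most 0.0874 from neqc (limma) run on the intensities, and each array's median rounds to 5.12.

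Genes were named from the platform annotation: of 45281 probes, 34885 had 1 symbol, 18 had several and 10378 had none. Each gene was read on its brightest probe by mean over the 6 arrays. Genes entered the test where that probe was detected (p under 0.01) on 2 or more of the 4 tamoxifen arrays. The test was limma 3.58.1 in R 4.3.3, by lmFit on group means and eBayes with default settings, two-sided, at 2 residual degrees of freedom, with Benjamini-Hochberg adjustment over 9851 genes and a threshold of 0.05. The p-values measure the spread between samples the labels call biological replicates, which in each tamoxifen group also differ in age. For stabilised against GFP control, genes detected on at least 1 of the 2 arrays were counted from 2-fold. A gene below detection in 1 group was given a bound, the bright group's mean against, per array of the dim group, the higher of the lowest detected signal and the probe's own value. No 2 arrays shared more than 2 identical intensities.

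Values on every array are given for genes whose brightest probe was detected on at least 3 arrays, and Myh7 is given as a range. From a marker list 3 genes were taken by mean level, of which those that touch a result are named. The genes, lists and tests were chosen with earlier results of these data known. Alternatives covered the normalization, background, offset, detection filter, probe choice, single arrays, a replicate block and the variance prior.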

Additional observations from a re-analysis of the deposited data

Results flagged for a closer look

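In 18 of the 38 tested muscle genes the knockdown array read below the control array at 5 months and above it at 2 months, where 17.6% of all tested genes did. All 38 were lower at 5 months, so the 18 are simply those that were higher at 2 months. That count is near the share of all tested genes that were higher at 2 months, 47.1%. The difference between the ages was not tested, since each age holds 1 array per group, and many of the 2-month differences are small, from 0.01 to 0.56 log2. The 5-month difference less the 2-month difference was -4.80 log2 for Mylpf, -4.56 for Ckm, -4.32 for Tnnc2, -4.04 for Eno3 and -3.93 for Acta1. It was -3.67 for Tnni2, -3.32 for Cox6a2, -3.24 for Myl1, -3.20 for Ampd1, -3.12 for Actn2, -3.06 for Tnnc1 and -2.80 for Tnnt1. The other 6 genes were below detection on knockdown replicate 1, so their 5-month values rest on the floor of the array and have no exact size or order: Myoz1 at -4.05, Casq1 at -3.56, Tnni1 at -3.40, Ldb3 at -2.72, Myot at -2.71 and Trim63 at -2.20.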

How the results depend on the processing

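No alternative that kept all 4 tamoxifen arrays called a muscle gene between knockdown and control. Over the 13 alternatives run, the direction of each of the 38 tested genes was kept in all 494 combinations of gene and alternative. Part of that count was fixed in advance, since the detection filters, the replicate block and the variance prior leave a gene's difference unchanged. None used the 2-month arrays alone, where 18 of the 38 were higher in knockdown. Leaving out 1 array at a time gave 0 to 7 calls over all genes, and the 7, none of them a muscle gene, came without knockdown replicate 1. The muscle median between the groups ran from -2.67 to -0.58 over the same fits, which assume that a lone array varies like the other group. With a replicate block, 0 genes passed and 746 had an unadjusted p under 0.05, against 434 without it, and 4 against 8 of the muscle genes did. Same-numbered arrays share an age but no animal, and their deviations correlated at 0.13 over all tested genes and at -0.05 over the muscle genes. On the adenovirus arrays, 13 genes were at least 2-fold lower without background correction, against 21, and 16 with the mean over a gene's probes, and the median over the 40 genes was -0.56 and -0.80 under these settings and -0.82 with offset 50, against -1.25. The 2-month median changed sign within 0.03 of zero when arrays were scaled to their 75th percentile (0.03) or probes were averaged (0.01). Setting genes below detection at bounds was an alternative chosen after seeing the data. Signal near background limits all differences of genes below detection.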
